A study of Mus musculus with 27 samples.

Results

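The comparison described here sets the 3 hepatocyte samples of the mouse strain 129S1/SvImJ against the 3 of the strain NZO/HlLtJ, 6 of the 27 samples of a survey of DNA methylation in 9 inbred strains. The 6 mice were females aged 12 weeks, without treatment in the labels. No strain served as a control and no allele was engineered, so the strain names carry every genetic difference between the groups. The pair was chosen by measured values: it had the fewest differing positions among the 36 strain pairs at the positions listed in all 27 samples. With the spread shared over all 27 samples, 1733 of 704265 such positions (0.246%) differed in this pair. The next lowest pair, DBA/2J and NZO/HlLtJ, had 1822 (0.259%). These counts chose the pair and are given as a description. Samples of a strain carry separate replicate numbers and are labelled as biological replicates. Nothing in the labels says whether mice of a strain shared a litter or a cage.

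DNA methylation in mammals sits mainly on cytosines followed by guanine, the CpG sites. Most CpG sites of the genome are methylated, while clusters of CpG sites at gene starts, the CpG islands, are mostly unmethylated, and methylation of a gene start is known to go with silencing. Inbred strains carry fixed sequence variants, and methylation at a site can differ between strains where the nearby sequence differs. A variant can also create or remove a CpG site, so that a site exists in 1 strain and not in the other. 129S1/SvImJ belongs to the 129 family of strains, from which many embryonic stem cell lines were made. NZO/HlLtJ, the New Zealand Obese mouse, is a model of polygenic obesity and diabetes. Both are founders of the Collaborative Cross, a panel of recombinant inbred lines.

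The assay was reduced representation bisulfite sequencing, which reads the CpG-rich fragments left by the enzyme MspI. Each file lists single cytosines with a percent methylation. Depth is unknown, because the files give no read counts. On chromosomes 1 to 19 and X, 2904138 to 2983164 positions were listed per 129S1/SvImJ sample and 3013750 to 3113881 per NZO/HlLtJ sample. All 6 files listed 2378015 positions, and 685628 of these were missing from at least 1 of the other 21 samples and so took no part in the choice of the pair. Positions within the same 1000 bp were averaged into a tile where at least 5 were listed, which gave 105354 tiles with a median of 9 positions. A feature was tested when its mean over the 6 samples lay at least 2.5 points from both 0 and 100%. It was called different when limma's moderated test gave a Benjamini-Hochberg adjusted p under 0.05 over all tested features and the strain means differed by at least 25 percentage points. Coordinates are those of GRCm38, counted from 1. Distances of a tile are counted from its nearest edge.

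The label of hepatocytes was checked at the gene starts of cell markers, as far as these were read. The hepatocyte genes Apoa2, Ass1, Foxa2 and Pck1 had strain means between 0.388 and 1.53% within 500 bp of their starts, Hnf4a had 5.38% in 129S1/SvImJ and 3.49% in NZO/HlLtJ, and Apob had 7.44 and 4.50%, with samples from 0 to 12.8%. No position was listed within 500 bp of the start of Alb, Ttr, Apoa1 or Serpina1a. Too few positions were listed near the starts of all Kupffer cell, macrophage and lymphocyte markers for a level, so these cells were not checked there. The start of the endothelial gene Kdr had strain means of 1.18 and 1.26%. Among stellate cell genes, the starts of Lrat, Col1a2 and Reln had strain means between 0.532 and 3.23%, and that of Des had 19.75 and 19.85%. Low levels were thus found at starts of genes of other cell types as well, and do not mark hepatocytes. Among cholangiocyte genes, the start of Krt7 had 16.8, 23.2 and 21.4% in 129S1/SvImJ and 36.8, 28.7 and 38.4% in NZO/HlLtJ, and Epcam had means of 43.3 and 53.6%. For neither gene do the groups overlap, and Spp1, with 67.3 and 59.8%, lay the other way with groups that overlap. None of the 17 tested tiles of the cholangiocyte genes was called. The part of a different share of bile duct cells in any result below was not tested.

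A few of the called differences lay at annotated gene starts whose sequence was at hand. A promoter window runs from 250 bp before to 50 bp after the start in RefSeq's GRCm38.p6 models. The search for such windows left out a chromosome, which is named with the processing steps below. Among the windows searched, those of 11 genes with listed positions were overlapped by 12 of the 265 called tiles described below. Tested tiles that overlap such windows were not counted, so the 12 cannot be compared with the share over all tested tiles. Sequences of 4 windows are printed to show where the listed CpG sites lie at these starts. They belong to the 2 called tiles of each direction with the largest differences among those that overlap a searched window. The first pair was higher in 129S1/SvImJ, the second pair higher in NZO/HlLtJ. Each reads 5′ to 3′ on the strand of the gene. Capitals mark the CpG sites listed in all 6 files. The windows are chr9:123924898-123925197 on the plus strand for Gm51701, chr4:63600715-63601014 on the minus strand for Gm11213, chr9:89066744-89067043 on the plus strand for Gm24463 and chr11:48825888-48826187 on the plus strand for Trim7.
Gm51701: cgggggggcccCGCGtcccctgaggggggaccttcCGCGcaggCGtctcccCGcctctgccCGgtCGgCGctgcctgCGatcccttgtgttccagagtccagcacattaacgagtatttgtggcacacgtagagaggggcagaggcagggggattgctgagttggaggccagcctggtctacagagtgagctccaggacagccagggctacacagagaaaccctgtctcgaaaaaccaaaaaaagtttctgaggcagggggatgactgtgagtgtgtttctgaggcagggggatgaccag
Gm11213: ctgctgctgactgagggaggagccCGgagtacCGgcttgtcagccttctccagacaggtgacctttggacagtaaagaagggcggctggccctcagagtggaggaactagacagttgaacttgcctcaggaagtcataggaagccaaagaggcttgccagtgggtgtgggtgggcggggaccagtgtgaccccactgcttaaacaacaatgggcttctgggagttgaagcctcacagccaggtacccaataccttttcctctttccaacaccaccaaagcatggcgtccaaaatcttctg
Gm24463: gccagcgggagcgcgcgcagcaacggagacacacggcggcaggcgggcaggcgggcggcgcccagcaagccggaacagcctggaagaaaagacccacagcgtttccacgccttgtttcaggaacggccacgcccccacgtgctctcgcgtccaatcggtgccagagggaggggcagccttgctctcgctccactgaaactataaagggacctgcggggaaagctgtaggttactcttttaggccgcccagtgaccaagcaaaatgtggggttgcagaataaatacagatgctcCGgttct
Trim7: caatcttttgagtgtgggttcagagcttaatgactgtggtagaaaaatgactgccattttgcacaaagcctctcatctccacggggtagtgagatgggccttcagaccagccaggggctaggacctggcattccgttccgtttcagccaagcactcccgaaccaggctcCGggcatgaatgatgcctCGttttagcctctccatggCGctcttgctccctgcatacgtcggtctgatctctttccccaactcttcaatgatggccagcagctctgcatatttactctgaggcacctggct

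In the window of Gm51701, a long non-coding RNA gene, 10 of 14 CpG sites were listed, all in the part farthest upstream. The mean over them was 70, 67.5 and 62.3% in the 129S1/SvImJ samples and 1.00, 0 and 0% in the NZO/HlLtJ samples. The difference was not even along the window. The CpG 198 bp before the start had 33.3, 10 and 12.5% in 129S1/SvImJ, while the CpG 184 bp before it had 100, 100 and 85.7%, and all NZO/HlLtJ values at both were 0. The window of Gm11213, a predicted protein-coding gene, reaches into its called tile only at its edge, and its 2 listed CpG sites lie outside that tile. Their mean was 22.7, 32.1 and 27.3% in 129S1/SvImJ and 9.09, 0 and 3.13% in NZO/HlLtJ, and the 2 sites behaved differently. The CpG 218 bp before the start was listed at 0 in all 6 samples, and that 225 bp before it had 45.5, 64.3 and 54.5% in 129S1/SvImJ against 18.2, 0 and 6.25% in NZO/HlLtJ.

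Gm24463, a non-coding RNA gene in the RefSeq table, lies at the tile with the largest difference of all. Its window holds 24 CpG sites, of which only the last, 43 bp after the start, was listed, with 9.09, 0 and 0% in 129S1/SvImJ and 100, 94.1 and 95.2% in NZO/HlLtJ. Trim7 encodes a ubiquitin ligase of the tripartite motif family that binds glycogenin. Its 3 listed CpG sites lie between 81 and 43 bp before the start. Their mean was 22.2, 37.0 and 42.4% in 129S1/SvImJ and 78.0, 91.4 and 86.0% in NZO/HlLtJ. On the CpG 63 and 62 bp before the start, the strain means were 24.3 and 79.96% at the first position and 28.6 and 93.3% at the other, on the opposite strand. The rule also named the windows of 2 further genes, which are not printed. Gm38647, a non-coding gene, averaged 78.7% ± 3.11 in 129S1/SvImJ and 56.1% ± 2.74 in NZO/HlLtJ (SD, n = 3 each), and 4930524B15Rik averaged 68.3% ± 9.62 and 96.5% ± 6.05 (SD, n = 3 each).

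The overall level hardly separated the strains. The mean over the 2378015 positions was 38, 38.3 and 38.1% in 129S1/SvImJ and 37.9, 37.8 and 38.1% in NZO/HlLtJ. The groups overlap, and the difference of 0.205 points had p = 0.2 (exact permutation test, two-sided). With 3 samples against 3, that test cannot go below 0.1. At the 685628 positions that took no part in the choice of the pair, the means were 63.7, 64.0 and 63.7% against 63.2, 63.1 and 63.6%. Here the groups do not overlap, and the difference of 0.485 points had the smallest p the test allows, 0.1. The share of positions with an intermediate level, between 20 and 80%, was 10.7, 10.8 and 11% in 129S1/SvImJ and 11.6, 11.7 and 11% in NZO/HlLtJ (exact permutation p = 0.1, no overlap before rounding). At the positions listed in all 27 samples it was 9.07, 8.99 and 9.21% against 9.50, 9.65 and 9.18%. There the groups overlap (exact permutation p = 0.2). On the X chromosome, where the inactive copy of females carries methylated CpG islands, this share was 32.2% ± 0.576 and 33.8% ± 0.695 (SD, n = 3 each, exact permutation p = 0.1). Across tiles, the correlation of samples was 0.968 to 0.973 within 129S1/SvImJ, 0.973 to 0.977 within NZO/HlLtJ and 0.960 to 0.967 between the strains. These correlations are across tiles of the same libraries and are a description.

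Of 84115 tested tiles, 265 were called (0.315%). They split evenly, with 133 higher in 129S1/SvImJ (0.158%) and 132 higher in NZO/HlLtJ (0.157%). All 265 had groups that do not overlap, which held with a difference of at least 25 points, whatever the p, for 546 tiles (0.649%). The median size of the difference was 37.4 points. It reached 50 points in 65 tiles, 36 of them higher in 129S1/SvImJ, and 75 points in 11 tiles. An adjusted p under 0.05 alone was reached by 378 tiles (0.449%), and an unadjusted p under 0.05 by 9195 tiles, or 10.9%. The calls nearest to the minimum difference were at 25.1, 25.1 and 25.2 points, and the nearest tiles below it at 24.985, 24.7 and 24.7 points. A tile can differ by 25 points only where its mean lies between 12.5 and 87.5%, and of the 32944 such tiles 0.804% were called. The called share was highest, at 1.78%, among tiles with a mean of 30 to 70%. Leaving out a sample lowered the count in each of the 6 cases, to 126, 109 and 82 without 129S1/SvImJ replicates 1, 2 and 3 and to 50, 66 and 67 without NZO/HlLtJ replicates 1, 2 and 3. With the spread shared over all 27 samples, at the positions they all listed, 279 of 44411 tiles were called (0.628%), and 155 of the 161 called tiles that could be tested there were among them. In 8 called tiles 1 strain was under 10% and the other over 80%, and in 68 both strains lay between 20 and 80%.

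**Figure D1:**
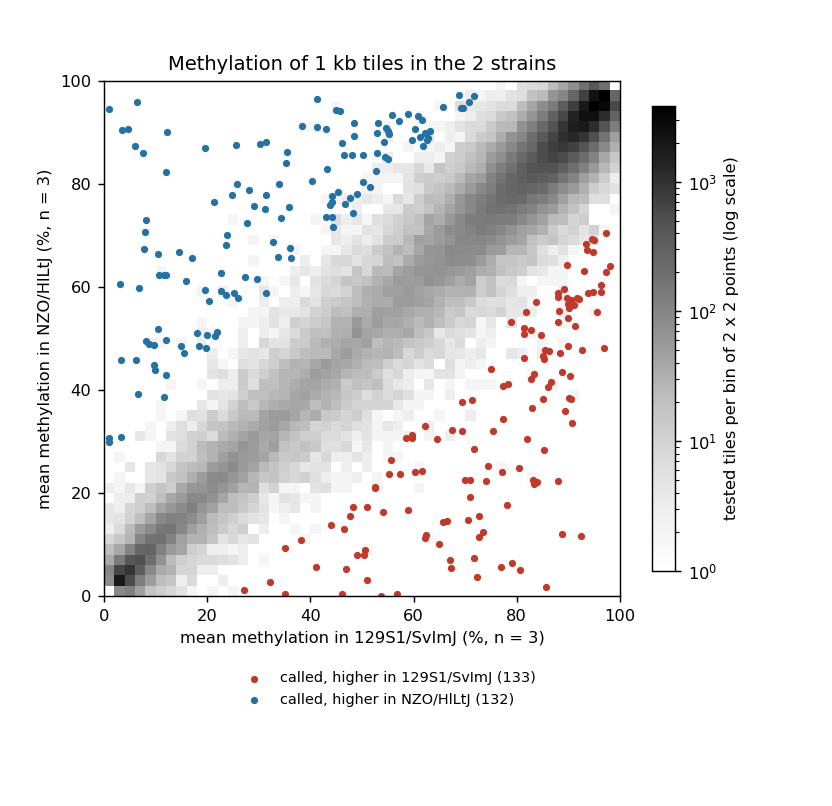
Mean methylation of each tested 1 kb tile in 129S1/SvImJ (horizontal, %) and NZO/HlLtJ (vertical, %), 3 samples each. Grey shows how many of the 84115 tested tiles fall in each bin, on a log scale, and coloured points are the 133 tiles called higher in 129S1/SvImJ and the 132 called higher in NZO/HlLtJ, which lie on both sides of the diagonal over most of its length.

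The largest difference in favour of 129S1/SvImJ was at chr1:171044001-171045000, a tile that overlaps the glycine transfer RNA gene n-TGgcc4. Its 14 positions averaged 96.6, 88.0 and 72.6% in 129S1/SvImJ and 5.22, 0 and 0% in NZO/HlLtJ (limma adjusted p = 0.0102). The neighbouring tile, chr1:171045001-171046000, which overlaps the same gene, had 50.4, 62.5 and 48.4% against 0, 0.303 and 0%. Transfer RNA genes exist in many near-identical copies, so reads from another copy cannot be told apart here. At chr12:116404001-116405000, within the non-coding gene D430020J02Rik and 436 bp from the start of Ncapg2, a condensin subunit gene, the samples had 94.7, 93.1 and 89.6% against 17.2, 4.30 and 13.5% (adjusted p = 0.00631). In the larger n-TGgcc4 tile and the D430020J02Rik tile every NZO/HlLtJ sample lay far below every 129S1/SvImJ sample. The call at that n-TGgcc4 tile was lost without any 1 NZO/HlLtJ sample or without 129S1/SvImJ replicate 2 (adjusted p from 0.0529 to 0.0676), while that at D430020J02Rik was kept without each of the 6 samples in turn.

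Within the span of Sgk1, a kinase gene induced by serum and glucocorticoids, the tile chr10:21997001-21998000 lies 2335 bp from the start of the gene. It had 79.3, 82.0 and 55.9% in 129S1/SvImJ and 1.49, 8.65 and 1.01% in NZO/HlLtJ (adjusted p = 0.0157). The third 129S1/SvImJ sample was the lowest of its group but stood far above all of NZO/HlLtJ. The call was lost without 129S1/SvImJ replicates 1 or 2 or NZO/HlLtJ replicates 1 or 3 (adjusted p from 0.0677 to 0.0925), with differences of 63.9 to 67.6 points, and with an offset of 1 percentage point (adjusted p = 0.0504). Cables1, an adaptor of cyclin-dependent kinases, had 95.3, 78.6 and 92.6% against 12.3, 7.14 and 16.9% at chr18:11858001-11859000. Within Ankrd46, chr15:36488001-36489000 had 90.8, 83.5 and 89.8% against 21.8, 21.3 and 24.3%, an intermediate level that the NZO/HlLtJ samples shared closely. The tile beside Gm51701, chr9:123924001-123925000, had the most positions of these 10 tiles, 50, and averaged 77.5, 80.5 and 79.1% against 5.48, 6.17 and 7.79% (adjusted p = 0.00175). A further 52 positions in that tile were listed in all 3 samples of 1 strain and in none of the other. The remaining 4 tiles, at Rgl1 and, outside genes, near Gm18503, E130018N17Rik and Gtsf1l, differed by 61.8 to 75.5 points.

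In favour of NZO/HlLtJ, the largest difference was at chr9:89067001-89068000, which holds Gm24463. Its 8 positions averaged 1.14, 0.893 and 0.962% in 129S1/SvImJ and 96.7, 91.7 and 95.2% in NZO/HlLtJ, a difference of 93.6 points (adjusted p = 0.000704). None of these 8 positions was listed in all 27 samples. Within Ldlrad3, which encodes a membrane protein with low-density lipoprotein receptor class A repeats, chr2:102113001-102114000 had 0, 11 and 8.33% against 96.4, 91.9 and 99.4% (adjusted p = 0.00666). The call was lost without NZO/HlLtJ replicate 1 (adjusted p = 0.0536) and with an offset of 1 percentage point in the log ratio (adjusted p = 0.0538). That tile lies 72460 bp from the start of the gene, deep inside its span.

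At chr9:100446001-100447000, 2959 bp from the non-coding gene Gm28166, the samples had 9.72, 3.97 and 0% in 129S1/SvImJ and 89.2, 94.3 and 88.1% in NZO/HlLtJ (adjusted p = 0.00626). The other 7 strains had means between 0.275 and 12.1% there, so NZO/HlLtJ was the strain apart. Near Slc22a5, the gene of the carnitine transporter of the cell membrane, chr11:53903001-53904000 lies 11298 bp from the gene start. It had 4.25, 5.92 and 7.58% against 89.8, 88.6 and 83.4% (adjusted p = 0.00205), and PWK/PhJ and WSB/EiJ were as high as NZO/HlLtJ, with 88.9 and 88.8%. Tiles within Rfx1, a transcription factor gene, Coro2b, a coronin gene, and Pebp4 differed by 78.5, 77.8 and 70.4 points. Outside genes, the tile near Trarg1, a regulator of glucose transporter trafficking, differed by 67.3 points, that near Laptm4b, a lysosomal membrane protein gene, by 64.8 points, and chr15:31168001-31169000 by 86.9 points.

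**Figure D2:**
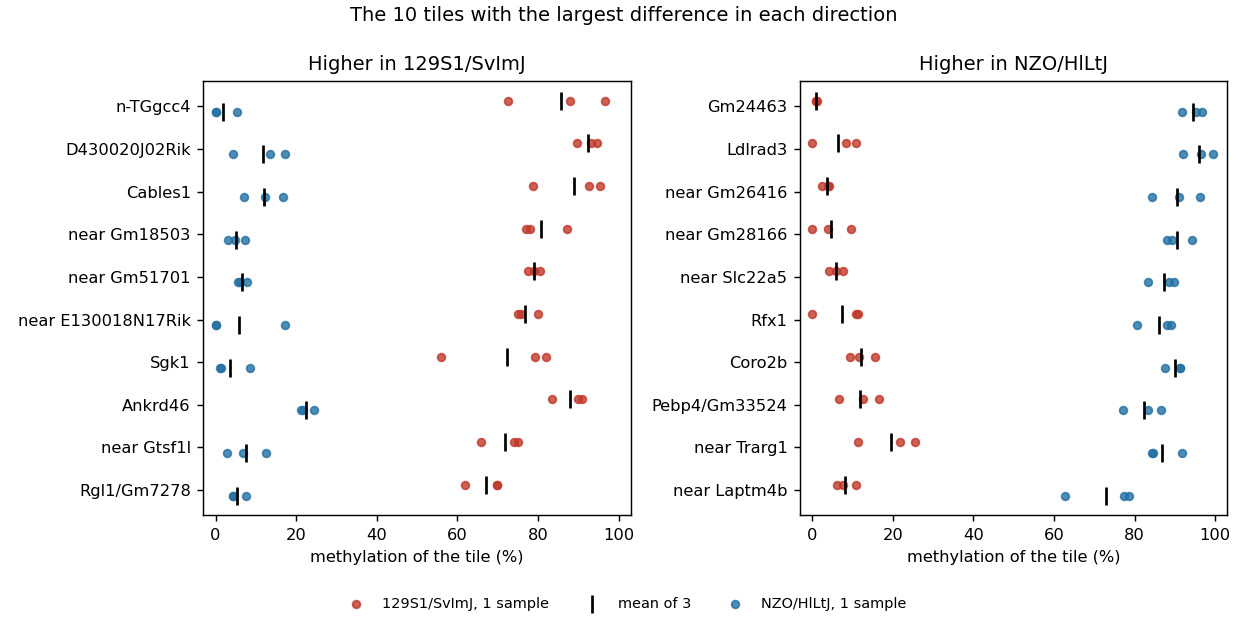
Methylation (%) of the 10 tiles with the largest difference in each direction, with 1 point per sample and a black bar for the mean of 3. In every tile shown the 3 red points of 129S1/SvImJ and the 3 blue points of NZO/HlLtJ do not overlap; the largest gap is at Gm24463, with 0.893 to 1.14% against 91.7 to 96.7%.

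Starts of protein-coding genes, or either boundary of the annotated span where a gene had no start model, are called gene ends here. For genes with a start model the other end was not counted. Gene ends held calls at a share close to the 0.315% of all tested tiles. A called tile held such an end in 14 of 3913 tested tiles (0.358%), lay up to 1 kb away in 21 of 5833 (0.36%) and was more than 50 kb away in 58 of 26063 (0.223%). Direction was uneven at these extremes. Of the 14 tiles that held an end, 3 were higher in 129S1/SvImJ and 11 in NZO/HlLtJ, and of the 58 distant tiles 39 were higher in 129S1/SvImJ. These splits were noticed in the data and were not tested. Called tiles were 159 of the 49517 that overlapped a protein-coding gene (0.321%), 32 of the 7813 that overlapped only another kind of gene (0.41%) and 74 of the 26785 that overlapped none (0.276%).

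At gene starts and ends, the tiles higher in 129S1/SvImJ included those at BC029722, a gene beside Mmp24, a membrane-bound metalloproteinase gene, and Eif6, a ribosome biogenesis factor gene. Its first tile, chr2:155818001-155819000, had 35.9, 46.4 and 55.9% in 129S1/SvImJ and 0.296, 0.238 and 0.909% in NZO/HlLtJ (adjusted p = 0.00631). The adjoining tile, chr2:155819001-155820000, had 31.3, 25.4 and 48.4% against 0.364, 1.25 and 0%. A/J, C57BL/6J, DBA/2J, NOD/ShiLtJ, PWK/PhJ and WSB/EiJ had means from 0 to 1.32% over these tiles, and CAST/EiJ had 7.95 and 11.1%, so 129S1/SvImJ was the strain apart. All positions of both tiles were listed in all 27 samples.

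At Zfp354a, a zinc finger gene, NZO/HlLtJ was the strain apart. Its tile chr11:51060001-51061000 lies 776 bp from a boundary of the gene's span. The tile had 93.4, 86.4 and 89.8% in 129S1/SvImJ and 46.8, 50.7 and 48.2% in NZO/HlLtJ, while the other 7 strains had 81.4 to 93.6%. The tiles near a span boundary of Lrp12, a member of the lipoprotein receptor family, and of Fzd6, a Wnt receptor gene, differed by 48.4 and 43.1 points. Those at C030006K11Rik, Gm11213 and Bik, a pro-apoptotic gene, differed by 41.0, 37.2 and 35.8 points. The adjusted p of these 6 tiles lay between 0.00631 and 0.0302.

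Higher in NZO/HlLtJ at gene starts and ends were Trim7 and Zfp872, a zinc finger gene. The Trim7 tile, chr11:48826001-48827000, had 16.9, 37.1 and 40.3% in 129S1/SvImJ and 82.1, 92.6 and 89.7% in NZO/HlLtJ (adjusted p = 0.0308). The Zfp872 tile, chr9:22188001-22189000, had 12.9, 33.3 and 17.6% against 78.8, 76.4 and 74.2% (adjusted p = 0.021). The Trim7 call was lost without each of the 6 samples in turn (adjusted p from 0.0545 to 0.14), and that at Zfp872 in 5 of the 6 cases, all but without 129S1/SvImJ replicate 2. At both, 129S1/SvImJ varied more between samples than NZO/HlLtJ, and none of the positions was listed in all 27 samples. Phldb2 had 27 positions at chr16:45843001-45844000, 378 bp from its start, with 11.3, 10.6 and 9.66% against 56.1, 55.7 and 43.8% (adjusted p = 0.00901). Near the start of Zfp367, chr13:64154001-64155000 had 17.9, 19.9 and 20.7% against 59.6, 64.0 and 54.5% (adjusted p = 0.0103), and the other 7 strains had 10 to 31.8%. Tiles at Gm50595, Igsf23, Slco4a1, an organic anion transporter gene, LOC115488029, F2r, the thrombin receptor gene, and Celf4 differed by 32.2 to 52.3 points. The Slco4a1 tile, at a 129S1/SvImJ minus NZO/HlLtJ difference of -33.6 points, had -20.6 points when made from the positions listed in all 27 samples and was then not called (adjusted p = 0.0594).

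Of the 47 tiles named by the rules of this comparison, 19 were called without each of the 6 samples in turn, 21 in 1 to 5 of the 6 cases and 7 in none, and no difference changed direction. The 19 include those at Gm24463, D430020J02Rik, Ankrd46, Coro2b and Pebp4, those near Gm51701, Slc22a5, Laptm4b and Serpina1a, the first tile of BC029722 and the second of n-TGgcc4. Calls were kept in no more than 2 of the 6 cases at Zfp872, Gm50595, F2r, Slco4a1, Igsf23, Rfx1, Sgk1, Zfp354a, Phldb2 and Cables1, at 1 of the tiles of each of Meis2, BC029722 and n-TGgcc4, and near Zfp367, E130018N17Rik and, for 1 of its tiles, Gtsf1l. They were kept in 3 to 5 cases at Ldlrad3, near Trarg1 and Lrp12, and at 1 tile near each of Mid1 and Gtsf1l. The 7 called in none are those at Trim7, Akt1, Fzd6, Gm11213, Celf4, C030006K11Rik and LOC115488029. With an offset of 1 percentage point in the log ratio, 14 of the 47 calls were lost (adjusted p from 0.0504 to 0.129), those at Sgk1, Ldlrad3, Rfx1, Fzd6, C030006K11Rik, Gm11213, Trim7, Zfp872, Gm50595, LOC115488029, F2r, Celf4 and Akt1 and that near E130018N17Rik. On untransformed percent, 1 of the 47 was lost, the second tile of BC029722 (adjusted p = 0.072). With 5 samples in place of 6, fewer residual degrees of freedom stand behind each test.

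Lists of genes tied to the liver and to traits of NZO/HlLtJ held almost no calls. A tile counted for a gene when it lay in the gene or within 2 kb of it. None of 98 tested tiles at hepatocyte transcription factors, 127 at fatty acid and cholesterol synthesis, 43 at fatty acid oxidation and uptake, and 53 at glucose and glycogen metabolism was called. The same held for 56 tiles at genes linked to weight and blood sugar in crosses of NZO mice, 39 at cytochrome P450 genes, 175 at imprinted genes, 76 at writers and erasers of DNA methylation and 72 at clock genes. At the background of 0.315%, lists of this size hold few calls or none whatever their function. The median difference of these 9 lists lay between -0.542 and 2.21 points, beside 0.316 points over all tested tiles. Of 128 tiles at insulin and IGF signalling genes, 1 was called (0.781%).

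That tile lies in Akt1, a kinase gene downstream of the insulin receptor, at chr12:112665001-112666000 and 8276 bp from the start of the gene. Its 7 positions averaged 14.3, 28.6 and 28.6% in 129S1/SvImJ and 77.1, 67.9 and 65.1% in NZO/HlLtJ (limma adjusted p = 0.0383). The groups are far apart, but the call was lost without each of the 6 samples in turn (adjusted p from 0.0687 to 0.15), with differences of 41.5 to 48.7 points in the same direction. Of its positions, 3 of the 7 positions were not listed in all 27 samples. Among hepatocyte markers, 1 of 40 tested tiles was called (2.5%). Its edge lies 382 bp from the start of Serpina1a, which encodes the protease inhibitor alpha-1 antitrypsin. None of its positions lay within 500 bp of that start. The tile had 66.9, 68.4 and 61.7% in 129S1/SvImJ and 17.9, 11 and 14.2% in NZO/HlLtJ (adjusted p = 0.00631), at chr12:103864001-103865000. Serpina1a has near-identical copies beside it, so the gene that gave these reads is uncertain, and none of the 6 positions was listed in all 27 samples. None of the 99 tested tiles of the other marker lists was called.

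Called tiles clustered most closely over short distances. Neighbours were counted from each called tile in turn, so a pair of called tiles counts from both sides. Of 81 tested neighbours directly beside a called tile, 22 were called (27.2%), all 22 in the same direction. At more than 1 and up to 10 kb the share was 2.26% (8 of 354, all 8 in the same direction). The group of 3 tiles on the X chromosome described below lies at these distances. Each of its tiles counts both others, so most of the 8 come from this 1 group. The share at these distances thus rests mainly on 1 place. At more than 10 and up to 100 kb the share was 0.843%, with 12 of 26 in the same direction. Beyond that, up to 1 Mb, it was 0.44%, beside 0.315% over all tested tiles. Called tiles less than 10 kb apart were joined into 251 groups, of which 238 held 1 tile, 12 held 2 and 1 held 3. The median gap between neighbouring called tiles of a chromosome was 3214000 bp.

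The group of 3 lies on the X chromosome just beyond the annotated span of Mid1, a ubiquitin ligase gene that spans the pseudoautosomal boundary in laboratory mice. The tile nearest to the gene, chrX:169991001-169992000, had 69.7, 53.4 and 47.2% in 129S1/SvImJ and 0, 0 and 1.19% in NZO/HlLtJ. At chrX:169994001-169995000 the values were 63.6, 69.2 and 66.8% against 12.7, 15.5 and 15.8%, and at chrX:169998001-169999000 they were 50.9, 58.8 and 43.2% against 1.43, 6.04 and 1.97%. All 3 tiles moved the same way, and their adjusted p lay between 0.00494 and 0.00867. Of their positions, 7 of 7, 9 of 14 and 7 of 7 were not listed in all 27 samples. The groups of 2 named by the rule are those at n-TGgcc4 and BC029722 above, a pair near Gtsf1l, and a pair within Meis2, a homeobox gene. The 12 groups of 2 tie in size, and these are the first in genome order, not the strongest. At Meis2, chr2:116061001-116062000 had 42.7, 44.3 and 36.7% against 94, 91.2 and 87.9%, and chr2:116062001-116063000 had 23.0, 34.4 and 26.0% against 74.7, 67.3 and 75.2%. The difference at the second of these tiles, -44.6 points, was -18.3 points over its 5 positions not listed in all 27 samples, which gave no call (adjusted p = 0.38), and -50.3 points over positions listed in all 27 (adjusted p = 0.00523).

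Along the chromosomes, most windows held no call. Of 1800 windows of 1 Mb with at least 300 positions, 1593 held no called tile, 166 held 1, 35 held 2 and 6 held 3 or more. The 255 called tiles in these windows are far fewer than the windows, so most would be empty however the calls were placed. The most calls were in the window of chromosome 2 from 163000001 to 164000000, with 4 of 95 tested tiles. Of 245 windows of 10 Mb, 113 held none, and these contained 33061 tested tiles. By chromosome, the called share ran from 0.154% on chromosome 5 to 0.693% on chromosome 18, where 17 of 2453 tiles were called, 8 higher in 129S1/SvImJ and 9 higher in NZO/HlLtJ. On chromosome 14, 4 of 16 called tiles were higher in 129S1/SvImJ, and on chromosome 1, 8 of 10.

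Windows also differed in how alike the lists of positions were. A position is called strain-only here when it was listed in all 3 samples of 1 strain and in none of the other. There were 180740 such positions, 79896 in 129S1/SvImJ and 100844 in NZO/HlLtJ, and unread fragments count among them as well as sites that exist in 1 strain only. Within the promoter windows, where the reference sequence is known, 172 of the 2766 positions only in 129S1/SvImJ and 191 of the 3294 only in NZO/HlLtJ fell on an A or T of the reference. The reference is that of C57BL/6J, whose 3 samples listed 0 positions on an A or T in these windows.

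Windows with more strain-only positions held a larger share of called tiles. The 1800 windows of 1 Mb were ranked by it and divided into 4 groups of 450. In the group with the fewest, a median of 1.01 strain-only positions per 100 shared ones, 18 of 22124 tested tiles were called (0.0814%). It was 0.184% in the next group, 0.336% in the one after it and 0.912% in the group with the most, with 130 of 14248 tiles called. This last group held 51.0% of the called tiles (95% Wilson interval 44.9 to 57.1%, counting error only) and 18.4% of the tested ones. The interval treats the called tiles as independent, which neighbouring tiles are not. Leaving out each sample in turn gave 53.8 to 63.2%, in most cases above the interval. With windows of 10 Mb the gradient was less steep, from 0.106 to 0.606%, and the group with the most strain-only positions held 33.3% of the called tiles, 88 calls against 91 in the group before it. Among tiles that held no strain-only position themselves, the share ran from 0.0706 to 0.672%. Counting only strain-only positions listed in at least 12 of the other 21 samples, it ran from 0.0726 to 0.815%, and among tiles with a mean of 10 to 90% from 0.169 to 1.88%. A tile with at least 1 strain-only position was called in 0.942% of cases, and one with none in 0.214%. The windows were ranked after the data were seen, these shares have no test, and the part of sequence variants, mapping or coverage in them was not tested.

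**Figure D3:**
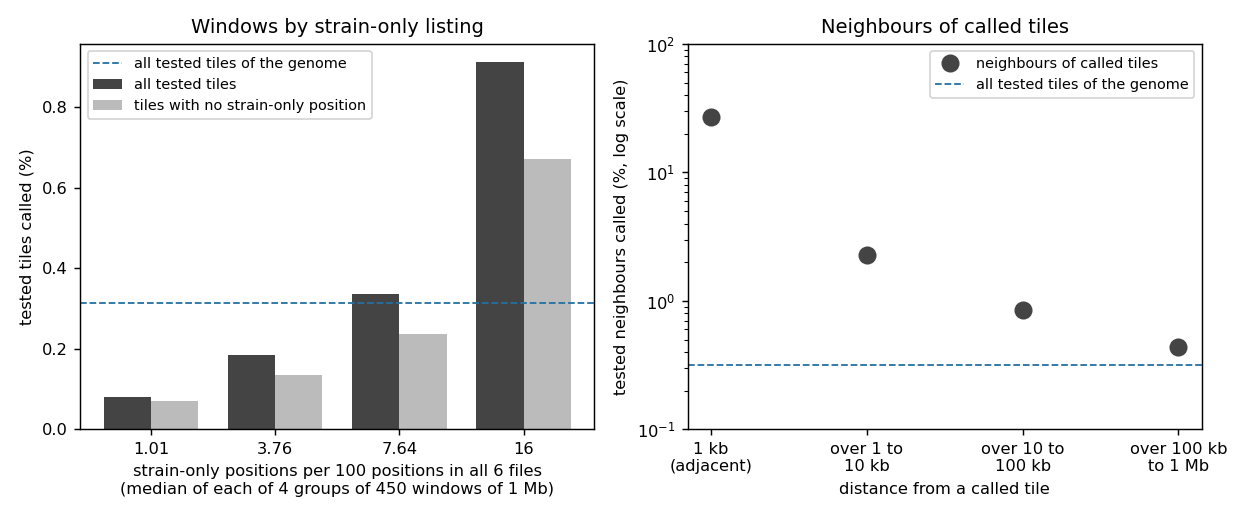
Left, percent of tested tiles called in 4 groups of 450 windows of 1 Mb ordered by strain-only positions per 100 positions listed in all 6 files, for all tiles (dark) and for tiles without a strain-only position (light). Right, on a log scale, percent of tested neighbours called at 4 distances, counted from each called tile in turn. The points fall from 27.2 to 0.44%, and dashed lines mark the 0.315% of all tested tiles. Most called neighbours at the second distance belong to 1 group of tiles on the X chromosome.

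Single positions gave fewer calls per test than tiles. Of 1124104 tested positions, 379 were called (0.0337%), 182 higher in 129S1/SvImJ (0.0162%) and 197 higher in NZO/HlLtJ (0.0175%). Their median difference was 92.8 points, so single positions were called mainly where the strains were close to fully methylated and unmethylated. Groups that do not overlap and differ by at least 25 points were found at 24482 positions (2.18%). With the spread shared over all 27 samples, which adds residual degrees of freedom, 1853 of 676298 positions were called (0.274%). Leaving out a sample gave 181 to 226 calls, the lowest without NZO/HlLtJ replicate 2. Among positions not listed in all 27 samples, which took no part in the choice of the pair, 251 of 447806 were called (0.0561%). At positions listed in all 27 samples it was 128 of 676298 (0.0189%), and 329 of these 676298 were called when they were fitted and adjusted on their own, so the distance between the shares depended on what was fitted together. Tiles built only from positions not listed in all 27 samples gave 53 calls of 35480 (0.149%), 28 of them higher in 129S1/SvImJ, and 49 of the 53 were also among the 265 tiles. Of the 379 positions, 108 lay in a called tile.

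Where called positions lay close together, they ran in the same direction over about the length of a tile. Most had no other call in their tile: the 379 lay in 291 tiles of 1 kb, of which 45 held 2 or more. Neighbours were again counted from each called position in turn, so 1 position can count more than once and tiles with many calls weigh most. Of tested neighbours at 1 bp, as a rule the opposite strand of the same CpG, 25.6% were called. At 11 to 100 bp the share was 15.8% and beyond that, up to 1000 bp, 12.1%, and all of these calls shared their direction. Farther away, up to 10 kb, it was 0.0847%, with 4 of 4722 such neighbours called, none in the same direction.

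The remaining 7 strains were set beside the pair at the called tiles. Of the 265, 170 had at least 5 positions in every strain. A line was drawn halfway between the means of the pair. At 11 of these 170 tiles all 7 strains fell on the NZO/HlLtJ side of it, and at 9 all fell on the 129S1/SvImJ side, together 11.8% (95% Wilson interval 7.75 to 17.5%, counting error only). Leaving out each sample in turn, which changes the set of called tiles, gave higher shares in all 6 cases, from 12.2% to 17.8%, the highest without NZO/HlLtJ replicate 2. At the other tiles the 7 strains were divided between both sides, most often with 5 or 2 nearer to 129S1/SvImJ, at 33 and 32 tiles. WSB/EiJ was nearer to 129S1/SvImJ at 57% of the tiles it was read at, and PWK/PhJ at 43.1%, with the other 5 strains from 44.3 to 53.1%. The line was taken from the pair after the tiles were called, so a strain that differs from both is still placed on a side. Between 9 and 16 tiles per strain were more than 20 points from both.

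**Figure D4:**
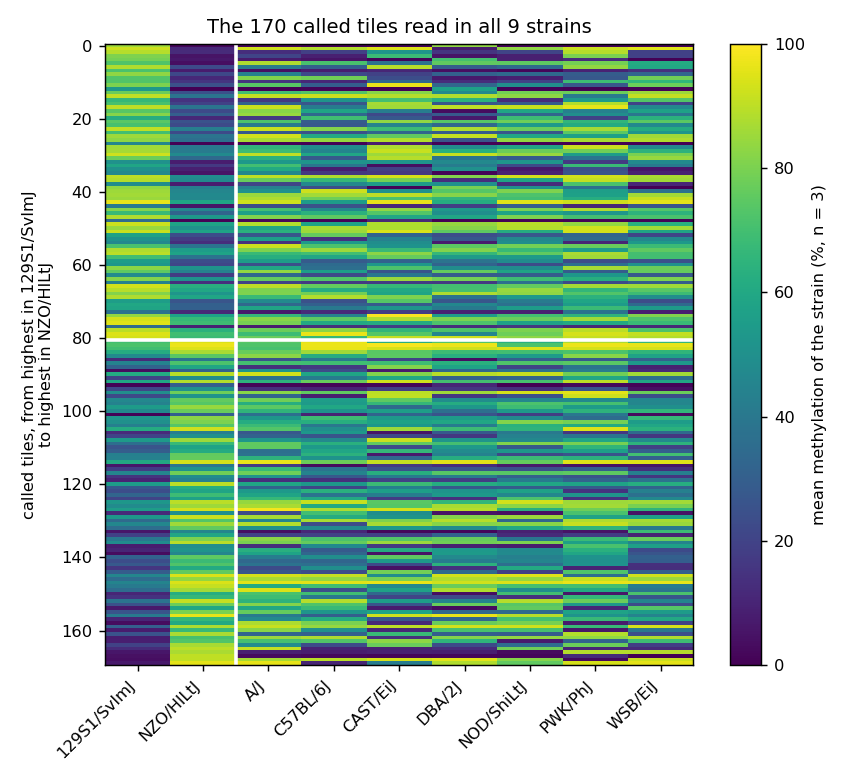
Mean methylation (%, 3 samples per strain, colour scale from 0 to 100) at the 170 called tiles read in all 9 strains, with 1 row per tile, ordered from highest in 129S1/SvImJ to highest in NZO/HlLtJ. White lines separate the pair from the other 7 strains and the 81 tiles higher in 129S1/SvImJ from the 89 higher in NZO/HlLtJ; the 7 strains carry either level at most tiles.

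The same test was then run for each of the other 35 strain pairs on the positions and tiles listed in their own 6 files. The pair came first of 36 by the share of tiles called, 0.315%, but the next pair, A/J and NOD/ShiLtJ, had 0.316%. 129S1/SvImJ and C57BL/6J had fewer called tiles, 256 (0.32%). These tiles also average the positions listed in all 27 samples, whose counts chose the pair, so this rank partly restates the choice. By tiles with groups that do not overlap and differ by at least 25 points, the pair ranked 3, with 0.649% and 0.64% in the lowest pair. At positions that took no part in the choice, the pair ranked 6, with 0.0561% called, behind 129S1/SvImJ and NOD/ShiLtJ with the lowest share, 0.0447%. Under this same fit the pair ranked 11 at the positions listed in all 27 samples, with 0.0189% called and 0.0109% in the lowest pair. Over all tested positions it ranked 8 by number called, 379, and the lowest pair had 277. By strain-only positions it ranked 7, with 7.60 per 100 shared positions, and A/J and NOD/ShiLtJ were lowest with 6.30. By the readouts that did not choose it, the pair was thus among the most alike and not the most alike. The pairs share samples, and the ranks have no test. The 15 pairs that include CAST/EiJ or PWK/PhJ all lay far above, with up to 2.24% of tiles called, and no other pair exceeded 0.965%.

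**Figure D5:**
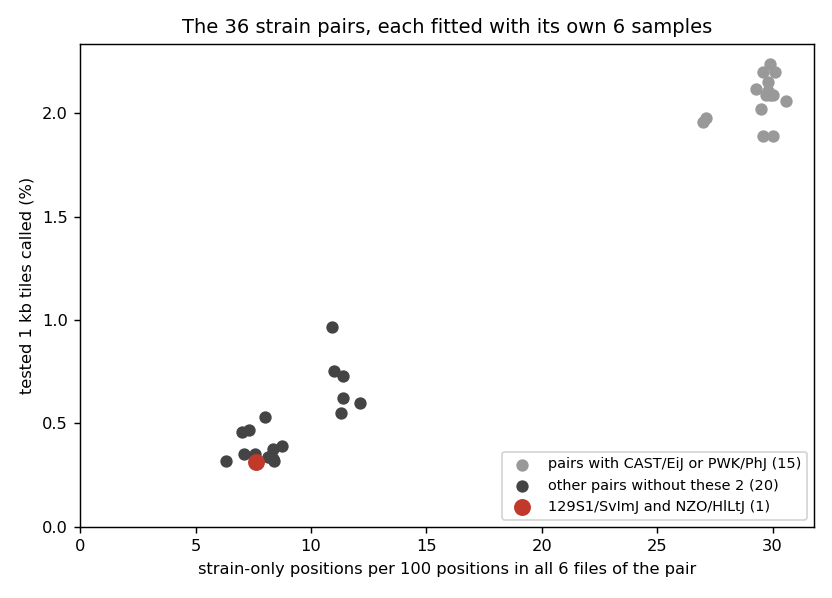
Percent of tested 1 kb tiles called (vertical) against strain-only positions per 100 positions listed in all 6 files (horizontal) for the 36 strain pairs, each fitted with its own 6 samples. 129S1/SvImJ and NZO/HlLtJ, in red, sit at 7.60 and 0.315% within the cluster of pairs without CAST/EiJ or PWK/PhJ, next to several with nearly the same values.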

How the data were processed

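Genomic DNA of hepatocytes was cut with MspI, converted with bisulfite and sequenced with a commercial RRBS kit, per the labels' protocols. Trim Galore 0.6.3, Bowtie2 and Bismark 0.22, with the build GRCm38 (mm10), are named in the submitters' processing notes. The deposited files list single positions with a percent methylation, per the file headers, and no counts or coverage; the coverage minimum is not given in the sources used here. Depth and counting error are therefore unknown. The same build is named for both strains. In the promoter windows, however, 427 to 437 listed positions per 129S1/SvImJ sample and 453 to 458 per NZO/HlLtJ sample fell on an A or T of it. Whether reads were aligned to a sequence adjusted to each strain was not tested. A variant can change whether a position is listed and its percent.

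Groups follow the strain label of each sample. The planned quasi-binomial test of counts was replaced, because the files hold percentages, by limma 3.58.1 in R 4.3.3 on log2((percent + 5)/(100 - percent + 5)), with only the 6 samples of the pair and no covariate. Positions on Y and the mitochondrial genome were left out. Files were read in Python 3.11.15 with numpy 2.4.6 and pandas 2.3.3, and figures drawn with matplotlib 3.10.9. On simulated tiles with the measured spread, 70 and 72% of shifts of 50 points down and up were called, 32 and 34% of shifts of 30 points, and 0 of 83311 unshifted tiles. On simulated positions, 28 and 48% of shifts of 90 points down and up were called, 0 of shifts of 50 points, and 3 of 1199965 unshifted positions. The simulated noise was normally distributed and cut at 0 and 100%. Shifts up were given to features of low mean and shifts down to those of high mean. These shares need not hold at other levels or for the discrete percentages of the files. Gene spans come from RefSeq's GRCm38.p6 table, promoter windows from the RefSeq models of the same assembly. The search for called tiles at promoter windows left out chromosome 18, so its called tiles are not in those counts.

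Tiles were named by rule. It took the 10 largest non-overlapping differences in each direction. It took the 10 largest in each direction within 1 kb of a protein-coding gene end as defined above. Every called tile at a listed gene and the 5 groups with the most tiles were added. The 12 groups of 2 tie, and those named are the first of them in genome order. The pair, the gene lists and the rule were chosen with earlier results of these data known. The offset, scale, filters, minimum difference, variance model, positions, strands, tile size, replicate block and each sample were varied.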

Additional observations from a re-analysis of the deposited data

Results flagged for a closer look

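The X chromosome was tested with the autosomes, while the Y chromosome and the mitochondrial genome took no part in any comparison. Although all mice are labelled female, each of the 6 files listed positions on the Y chromosome, from 974 to 1218 per sample. Positions of the mitochondrial genome numbered from 57 to 127 per sample. Both are a signal in data outside the main measurement, and their source was not tested. Groups of 3 samples are too small for a check of single outlying samples.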

How the results depend on the processing

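The settings moved the number of calls more than their direction. From 265 called tiles, 133 of them higher in 129S1/SvImJ, the counts went to 137 and 68 with an offset of 1 percentage point, to 114 and 62 with a minimum difference of 40 points, to 131 and 65 with 10 or more positions per tile, and to 53 and 28 for tiles from positions not listed in all 27 samples, a setting chosen after seeing the data. Leaving out each sample gave 50 to 126 tiles, 31 to 66 of them higher in 129S1/SvImJ. Apart from the replicate block below, the other settings for tiles gave 187 to 378. Positions were less steady. From 379 called, 251 of them not listed in all 27 samples, they went to 84 and 74 with an offset of 1 point, 664 and 411 with an offset of 10, 1257 and 652 on untransformed percent, 655 and 425 with robust eBayes and 1417 and 851 with no filter on the mean. With the spread shared over all 27 samples there were 1853. Leaving out each sample gave 181 to 226 and 160 to 206. The cause of these shifts was not tested.

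A fit with the replicate number as a block called 1 tile, 0 of them higher in 129S1/SvImJ, and 0 positions, 0 of them not listed in all 27 samples; at an unadjusted p under 0.05 it had 8571 tiles and 57013 positions. Over all shared positions, deviations from the strain means of same-numbered samples correlated at -0.0016, -0.0007 and -0.0014, so no pairing by number was seen there. A pairing that acts weakly or on few positions would not show in these values. The block leaves fewer residual degrees of freedom.

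The difference in mean level stayed positive, from 0.0912 to 0.300 points over its alternatives. The share of called tiles in the group of 450 windows with the most strain-only positions, 51.0%, went to 33.3% with 10 Mb windows, 58.0% with a minimum difference of 40 points, 65.3% for tiles from positions not listed in all 27 samples and 53.8 to 63.2% without each sample; all these were chosen after seeing the data. The share of tiles at which 1 strain of the pair stood alone, 11.8%, went to 12.2 to 17.8% without each sample, also chosen after seeing the data. Of 766 values of the 47 named tiles under alternatives, 576 kept the call, 190 lost it and 0 reversed. Without read counts, the precision of a single percent is unknown.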
